A study of Mus musculus with 16 samples.

Results

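Endothelial adhesion molecules are the surface proteins by which the wall of a blood vessel catches leukocytes from the flow. The 6 genes described here, Sele, Selp, Icam1, Vcam1, Madcam1 and Pecam1, were chosen by gene name among the non-control spots of every array. They were 6 of 21341 named genes and had 11 of 41174 probes. RNA came from female C57Bl/6 mice, every one of which had received an injection of 300 µg concanavalin A, a lectin that stimulates T cells and sets off an immune hepatitis. No mouse without concanavalin A is among the groups, so every value below is a level after the injection.

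The 6 groups comprised 16 samples. Livers 2 h after concanavalin A came from 3 mice given 100000 adipose tissue-derived stem cells immediately by the tail vein and from 3 mice given none. Livers 5 h after concanavalin A came from 3 mice given 100000 of the same cells at 3 h and from 3 mice given none. Hepatic inflammatory cells at 5 h comprised 2 samples from mice given stem cells at 3 h and 2 samples from mice given none. The stem cells had been released by collagenase from inguinal fat of C57Bl/6 mice and expanded in culture. The mouse age and the way the inflammatory cells were isolated are not given in the sources used here. Nothing states whether a cell sample was pooled, so the mouse number of a cell sample below names that sample. The source name of both cell samples used as untreated mentions stem cell treatment, whereas their treatment and description labels do not. The labels number each mouse, and livers are named by that number: 8, 9 and 10 at 2 h with stem cells, 11, 12 and 13 at 2 h without, 1, 2 and 3 at 5 h with stem cells, and 4, 5 and 6 at 5 h without.

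In inflamed venules the selectins act first. E-selectin (Sele) and P-selectin (Selp) bind sialylated sugars on leukocytes and make them tether and roll. The immunoglobulin family members ICAM-1 and VCAM-1 then hold the cell through leukocyte integrins, MAdCAM-1 is the gut addressin bound by an integrin of lymphocytes, and PECAM-1 sits at the endothelial junctions and takes part in the passage of leukocytes between the cells. Tumour necrosis factor, interleukin 1 and interferon gamma switch on several of these genes, largely through the transcription factor NF-kB, whereas Pecam1 is made by resting endothelium too. The sinusoids of the liver are known for holding leukocytes mainly through ICAM-1 and VCAM-1 with little use of selectins, and in liver VCAM-1 is also made by cells other than endothelium.

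Each value is a log2 signal after subtracting the log2 of the 75th percentile of the array, so that 0 is the level of that percentile and 1 unit is a doubling. Levels of different probes are not comparable with one another. A spot is called well above background by the scanner software, and 52.1 to 62.5% of the spots were so on each array. The number of arrays, 3 or 2 a group, limits the precision. Each slide from 1 to 3 held 1 liver of each group, and slide 4 held all 4 cell samples, so slide and tissue cannot be told apart. Changes were tested with limma across all genes, and a gene was called where its Benjamini-Hochberg adjusted p was under 0.05. RNA of a whole tissue was measured, so fewer endothelial cells and less RNA per cell cannot be told apart.

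The probes lie, in build mm8 as the files give it, at chr9:20779144-20779203 and chr9:20778248-20778307 for Icam1, both on the plus strand. Those of Vcam1 lie on the minus strand at chr3:116102302-116102361, chr3:116118039-116118098 and chr3:116109058-116109117. Sele was measured at chr1:165894270-165894329 and Selp at chr1:165986204-165986263 and chr1:165978102-165978161, all on the plus strand. The Madcam1 probe spans chr10:79068267-79068578 on the plus strand, and the main Pecam1 probe spans chr11:106497165-106499018 on the minus strand. An annotation of exons and UTRs in that build was not used here. The first position of each gene is the brightest probe, whose values are given below. The second probe of Icam1, Vcam1 and Selp followed the first in every liver comparison in sign. The third Vcam1 probe was well above background on 9 of the 12 livers and in 1 of the 4 cell samples. Its log2 change for stem cells was 0.03 at 2 h and -0.16 at 5 h, against -0.97 and 0.17 for the first probe. Between 5 h and 2 h it was -0.08 against 1.84 with stem cells, and 0.11 against 0.69 without. A second Pecam1 probe, at chr11:106497834-106497893, was well above background on 1 of 16 arrays and is annotated in the files by a clone that they describe under another gene, so it is not used.

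The promoter windows of 4 of the 6 genes, from 250 bases before to 50 bases after the transcription start, are shown because the results below turn on whether these genes moved together. They are RefSeq sequences of build GRCm38.p6, all on the plus strand: Icam1 at chr9:21015690-21015989, Sele at chr1:164047984-164048283, Selp at chr1:164115014-164115313 and Madcam1 at chr10:79664309-79664608. Capitals mark a match on either strand to the NF-kB consensus or to its shorter form GGNNNTTCC, which was written down after these windows had been read.
Icam1: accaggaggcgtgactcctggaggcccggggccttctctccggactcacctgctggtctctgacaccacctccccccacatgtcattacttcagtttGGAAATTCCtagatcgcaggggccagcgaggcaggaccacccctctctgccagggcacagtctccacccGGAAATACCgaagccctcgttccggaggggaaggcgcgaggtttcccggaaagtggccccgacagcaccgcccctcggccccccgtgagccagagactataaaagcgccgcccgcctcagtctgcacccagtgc
Sele: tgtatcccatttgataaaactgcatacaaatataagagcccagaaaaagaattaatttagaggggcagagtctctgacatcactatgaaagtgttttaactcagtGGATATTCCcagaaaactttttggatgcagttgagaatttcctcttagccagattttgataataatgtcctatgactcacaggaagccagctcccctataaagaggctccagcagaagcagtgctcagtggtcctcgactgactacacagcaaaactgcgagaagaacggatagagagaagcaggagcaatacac
Selp: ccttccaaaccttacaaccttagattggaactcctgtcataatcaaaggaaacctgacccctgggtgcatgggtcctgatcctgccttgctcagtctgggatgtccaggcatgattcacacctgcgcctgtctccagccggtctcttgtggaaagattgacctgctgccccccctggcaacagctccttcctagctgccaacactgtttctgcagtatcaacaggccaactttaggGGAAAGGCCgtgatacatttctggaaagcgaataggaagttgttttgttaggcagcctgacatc
Madcam1: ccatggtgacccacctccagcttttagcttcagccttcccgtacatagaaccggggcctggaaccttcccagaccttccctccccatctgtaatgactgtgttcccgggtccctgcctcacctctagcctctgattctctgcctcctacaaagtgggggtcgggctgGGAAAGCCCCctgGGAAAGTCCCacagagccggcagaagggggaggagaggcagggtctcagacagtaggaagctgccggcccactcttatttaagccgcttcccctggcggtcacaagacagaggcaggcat

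Icam1 held GGAAATTCC, which matches the shorter form on both strands, from position -153 relative to the start site, and a second match on the minus strand from -84. Sele held GGATATTCC from -145 on the plus strand. In Selp the match was GGAAAGGCC on the minus strand from -14. Madcam1 held 2 matches on the minus strand, GGAAAGCCCC from -83 and GGAAAGTCCC from -70, which also match the full consensus, so the 2 searches overlap there. Of 32851 mouse promoters of the same length, 8.46% held the full consensus and 18.5% the shorter form. A match describes the letters only. Windows of Vcam1 and Pecam1 are not printed here.

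All 6 genes entered the liver fit. In the inflammatory cells Sele was not well above background on any of the 4 arrays, and 5 genes were tested.

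**Figure D1:**
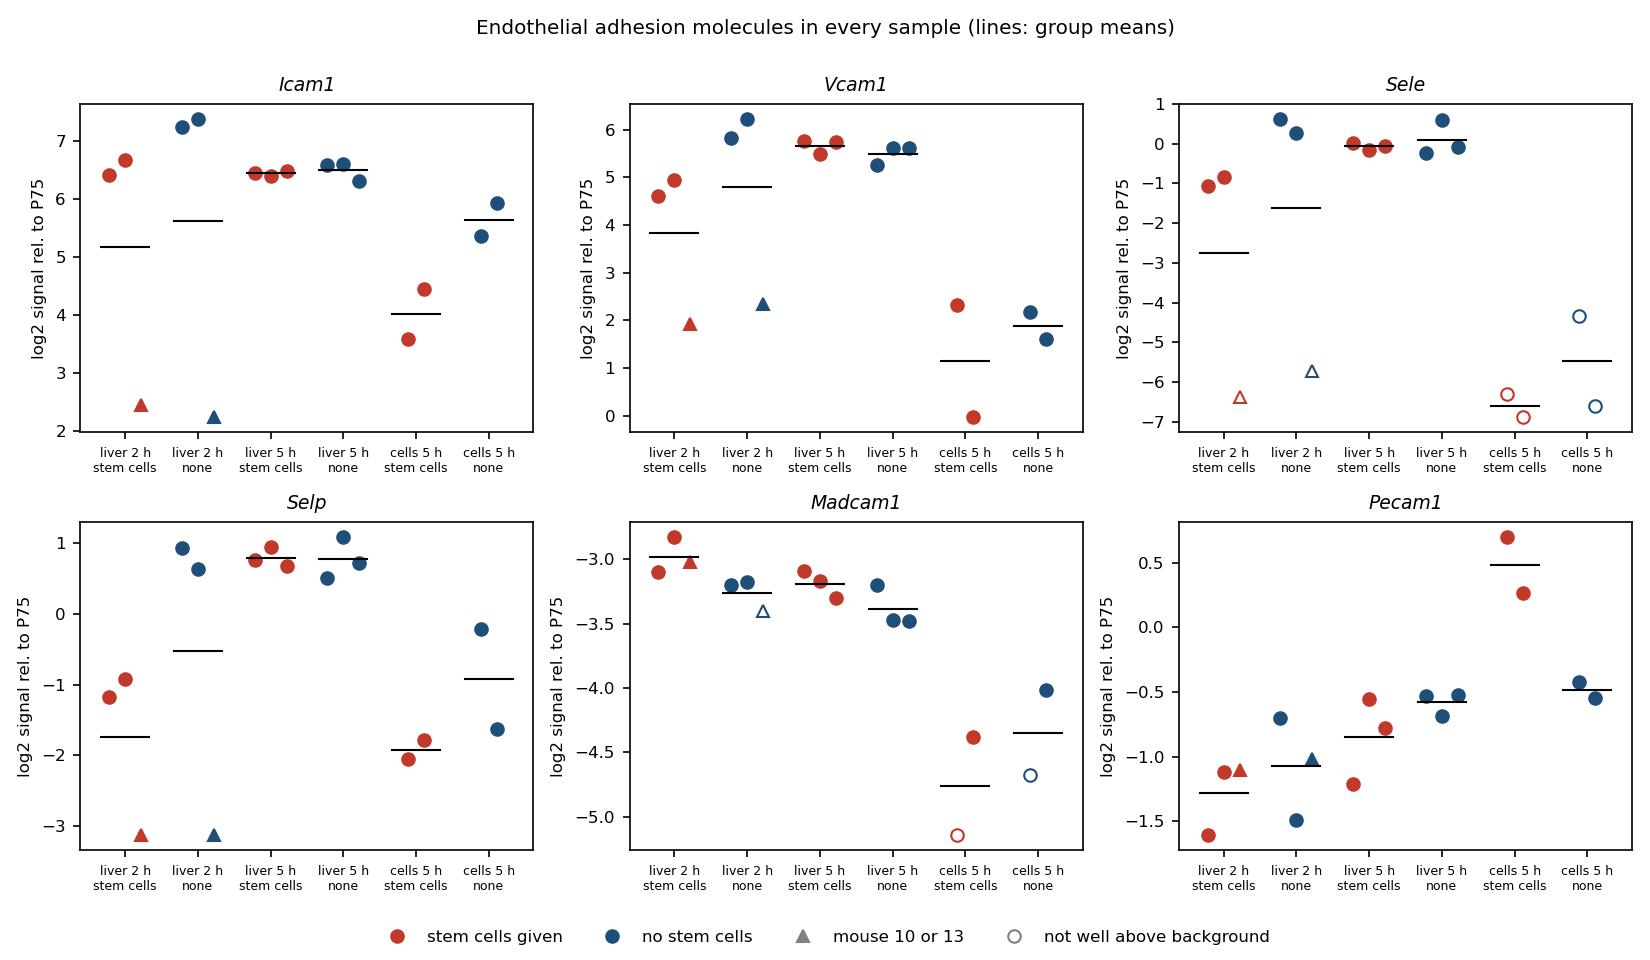
Log2 signal relative to the 75th percentile of the array (y axis) for each of the 6 genes in the 6 groups (x axis). Each point is 1 sample, triangles are mice 10 and 13, open symbols were not well above background, and lines are group means. Icam1, Vcam1, Sele and Selp were lowest among livers in mice 10 and 13, whereas Madcam1 and Pecam1 were not set apart there.

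At 2 h the livers of mouse 10, given stem cells, and of mouse 13, given none, stood apart. Icam1 was at 6.41, 6.68 and 2.44 in mice 8, 9 and 10 with stem cells, against 7.25, 7.39 and 2.23 in mice 11, 12 and 13 without. Vcam1 was at 4.62, 4.96 and 1.92 with stem cells, against 5.83, 6.24 and 2.36 without. For both genes, 1 liver of each group was lower than the other 2 of its group by over 2 log2 units, and the ranges of the groups overlapped.

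The selectins had the same arrangement. Sele was at -1.06, -0.84 and -6.37 in mice 8, 9 and 10, against 0.63, 0.28 and -5.73 in mice 11, 12 and 13, and in mice 10 and 13 it was not well above background. Selp was at -1.18, -0.92 and -3.13 in mice 8, 9 and 10, against 0.94, 0.64 and -3.12 in mice 11, 12 and 13. The within-group SD of Sele, 3.13 with stem cells and 3.58 without, was at the 100th and 99.9th percentile of the SDs of 14648 genes, against median SDs of 0.24 and 0.29.

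Madcam1 and Pecam1 did not share it. Madcam1 was at -3.10, -2.82 and -3.02 in mice 8, 9 and 10, against -3.20, -3.17 and -3.40 in mice 11, 12 and 13. The groups did not overlap, as was so for 8.2% of all genes. The Madcam1 probe was dim, and it was not well above background in mouse 13. Pecam1 was at -1.61, -1.12 and -1.11 with stem cells, against -0.70, -1.49 and -1.02 without, with overlapping groups.

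None of the 6 genes was called between livers with immediate stem cells and livers without at 2 h, where 0.0273% of 14648 genes were called. The log2 changes were -0.45 ± 1.37 for Icam1, -0.97 ± 0.98 for Vcam1, -1.15 ± 1.72 for Sele and -1.23 ± 0.94 for Selp (estimate ± SE, n = 3 each). Madcam1 had a log2 change of 0.28 ± 0.14 and Pecam1 of -0.21 ± 0.24. Adjusted p ranged between 0.864 and 0.95, no raw p was under 0.05, and the median log2 change of the 6 genes was -0.71 against 0.08 over all genes tested. The 95% intervals were wide, at -3.48 to 2.58 for Icam1 and -4.97 to 2.68 for Sele. Within slide 1, which holds neither mouse 10 nor mouse 13, the difference was -0.98 for Icam1, -1.62 for Vcam1, -1.33 for Sele and -1.81 for Selp. Within slide 2, which holds mouse 10, it was -4.81 for Icam1, and within slide 3, which holds mouse 13, it was 4.44.

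Without mice 10 and 13, 4 of the 6 genes were called lower in the 2 h livers given stem cells, with 2 livers in each group. The 2 mice were left out because they were known to stand apart, in these genes among others, so this is a description of the other livers and not a separate test. Selp fell by 1.84 ± 0.22 on the log2 scale (3.57-fold lower, adjusted p = 0.00504). Sele fell by 1.40 ± 0.27 (adjusted p = 0.0297), Vcam1 by 1.25 ± 0.21 (adjusted p = 0.0206) and Icam1 by 0.78 ± 0.16 (adjusted p = 0.0405). In that fit 3.11% of all genes were called and 2.48% were called lower. Madcam1 and Pecam1 had log2 changes of 0.23 ± 0.16 and -0.27 ± 0.30, with adjusted p = 0.524 and 0.724. Leaving out mouse 13 alone made the log2 change of Selp -2.53 (adjusted p = 0.04 by limma), in a fit that called 485 of 14648 genes. Leaving out mouse 10 alone turned the sign of Icam1 to 0.92 and of Sele to 0.66.

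**Figure D2:**
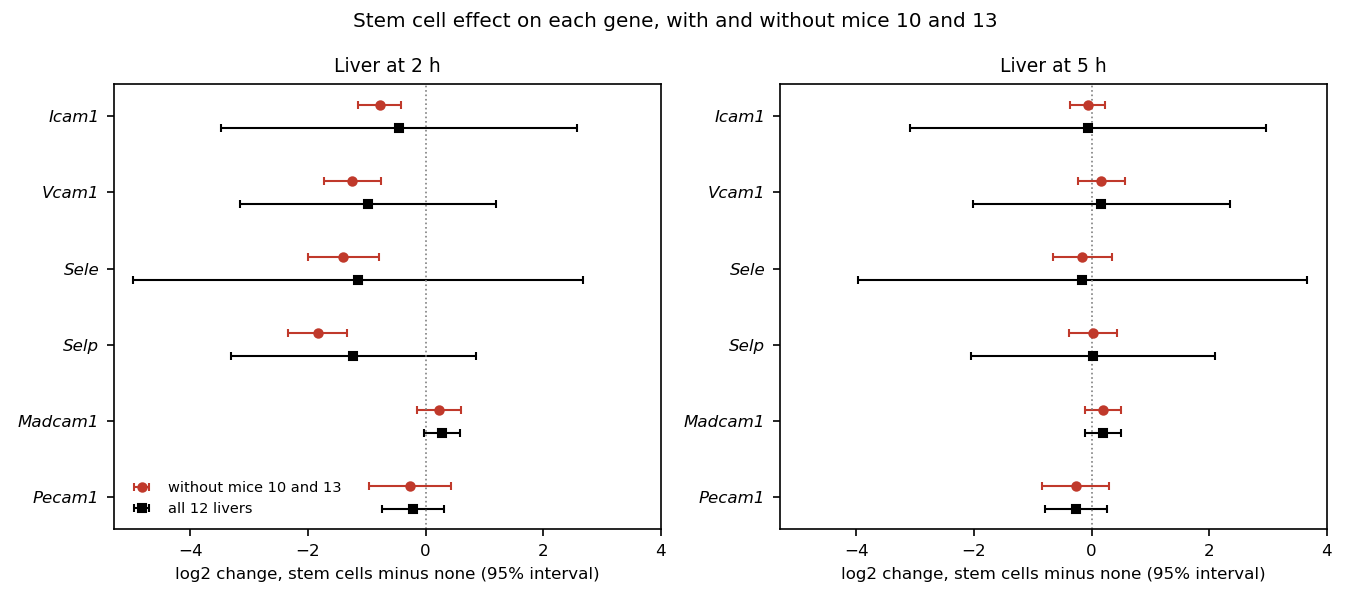
Log2 change, stem cells minus none, with its 95% interval (x axis) for each gene (y axis) in livers at 2 h and at 5 h. Squares are the fit of all 12 livers and circles the fit without mice 10 and 13. At 2 h the intervals of Icam1, Vcam1, Sele and Selp lay below 0 only without those mice, and at 5 h every interval held 0 in both fits.

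The cytokine genes and NF-kB regulators given here were low in the same 2 livers. The genes of this paragraph were picked from the list of 35 inducers and NF-kB regulators with their values known. Tnf, the gene of tumour necrosis factor, was at 0.39, 0.52 and -1.82 in mice 8, 9 and 10, against 1.5, 0.86 and -2.37 in mice 11, 12 and 13. Il1b, which encodes interleukin 1 beta, was at 3.70, 3.82 and 0.97 with stem cells, against 3.25, 3.18 and -0.43 without. Both cytokine genes were thus lowest in mice 10 and 13 among the 6 livers at 2 h. Ifng, the interferon gamma gene, was at 1.79, 2.20 and 0.39, against 3.34, 2.09 and -0.50. Relb, an NF-kB subunit, was at 2.33, 2.79 and -0.33, against 3.66, 3.67 and 0.03. Tnfaip3, which encodes the NF-kB inhibitor A20, was at 5.13, 5.22 and 0.84, against 5.82, 5.66 and -0.46.

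Over the 32 measured genes of that list, the median deviation from the mean of the 12 livers was -1.22 in mouse 10 and -1.28 in mouse 13, against -0.12 to 0.34 in the other 10 livers. Markers of neutrophils, at -1.77 in mouse 10 and -2.75 in mouse 13, also had their lowest deviations there. The 18 endothelial markers did not: their median deviation was 0.53 in mouse 10 and 0.82 in mouse 13, against -0.80 to 0.53 in the other livers. Kdr, the main receptor for vascular endothelial growth factor, was at 2.44 in mouse 10 and 2.63 in mouse 13, against 1.57 to 2.49 in the other 2 h livers. The part of the inducers or of the neutrophils in the low adhesion molecule levels was not tested.

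**Figure D3:**
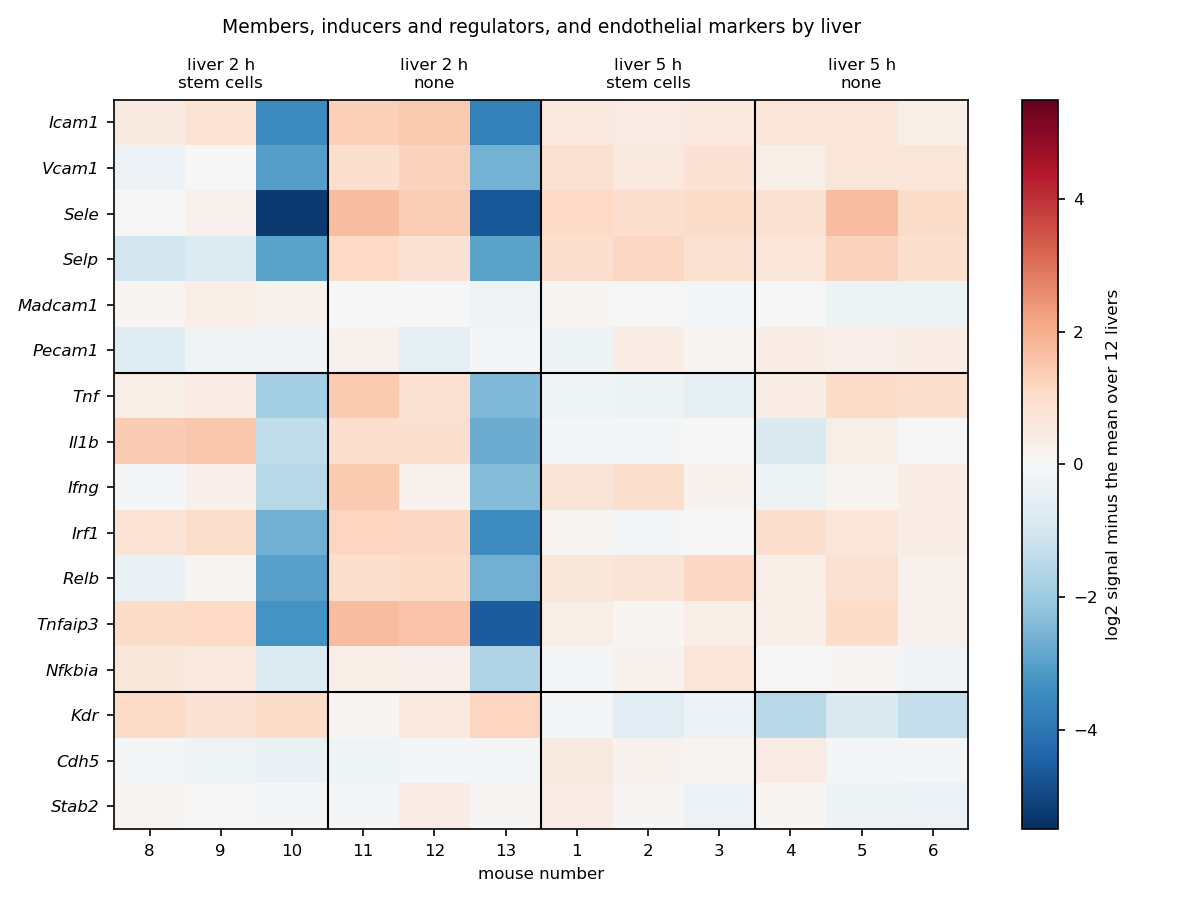
Log2 signal minus the mean over the 12 livers (colour) for the 6 genes, for 7 inducers or regulators and for 3 endothelial markers (rows) in each liver (columns, by mouse number and group). Mice 10 and 13 have the bluest cells for Icam1, Vcam1, Sele, Selp and the 7 inducers or regulators, and paler or red ones for Madcam1, Pecam1, Kdr, Cdh5 and Stab2.

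None of the 32 measured inducers and regulators was called for stem cells at 2 h over all livers, and 0 of 18 measured leukocyte counter-receptors and 0 of 23 other endothelial adhesion and junction genes were. With mice 10 and 13 left out, 2.48% of all genes were called lower and 0.628% higher. In that fit 6 inducers or regulators were called lower and none higher, among them Gata6, Il1r1, Nfkb1, Nfkb2 and Rela. They include the interleukin 1 receptor and 3 NF-kB subunits. Among the other adhesion genes Cx3cl1, a membrane-bound chemokine of endothelium, was called lower and Cldn5, a tight junction protein, higher. No counter-receptor was called.

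At 5 h no liver stood apart for these genes, and livers with stem cells overlapped livers without. Icam1 was at 6.46, 6.4 and 6.49 in mice 1, 2 and 3 with stem cells, against 6.60, 6.62 and 6.32 in mice 4, 5 and 6 without. Vcam1 was at 5.77, 5.5 and 5.74 with stem cells, against 5.25, 5.63 and 5.61 without. The groups overlapped for both genes.

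Sele was at 0.02, -0.15 and -0.06 in mice 1, 2 and 3, against -0.23, 0.59 and -0.09 in mice 4, 5 and 6. Selp was at 0.77, 0.95 and 0.68 with stem cells, against 0.51, 1.1 and 0.72 without. Both selectins had overlapping groups. Madcam1 was at -3.09, -3.17 and -3.30 with stem cells, against -3.20, -3.48 and -3.48 without. Pecam1 was at -1.21, -0.56 and -0.78, against -0.53, -0.69 and -0.53. Each of the 6 genes had overlapping groups, and the spread of Icam1 with stem cells, an SD of 0.04, was at the 3.15th percentile of all genes.

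None of the 6 genes was called for stem cells at 5 h, where 0.0341% of genes were called. The log2 changes were -0.06 ± 1.37 for Icam1, 0.17 ± 0.98 for Vcam1, -0.16 ± 1.72 for Sele and 0.02 ± 0.94 for Selp. They were 0.20 ± 0.14 for Madcam1 and -0.27 ± 0.24 for Pecam1, and adjusted p ranged between 0.569 and 0.995. The median was -0.02 against 0.08 over all genes. These errors draw on the spread of all 12 livers. With the 6 livers of 5 h alone the 95% interval was -0.40 to 0.28 for Icam1, -0.23 to 0.57 for Vcam1, -0.71 to 0.40 for Sele and -0.43 to 0.47 for Selp. None of the 6 genes was called without mice 10 and 13 either, where 0.328% of genes were. Within each of slides 1 to 3, at 2 h and at 5 h, the liver with stem cells had more Madcam1 (differences of 0.08 to 0.58) and less Pecam1 (-0.68 to -0.03) than the liver without. The share of all genes whose sign agreed in this way was not counted, and some of these differences were near 0. With slide as a block neither Madcam1 nor Pecam1 was called (adjusted p between 0.519 and 0.791 by limma).

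The stem cell effect at 5 h was also set against that at 2 h. None of the 6 genes was called, with 0.0137% called over all genes. The log2 difference of the effects was 0.39 ± 1.93 for Icam1, 1.14 ± 1.39 for Vcam1, 0.99 ± 2.44 for Sele and 1.25 ± 1.32 for Selp, each with adjusted p = 0.9997. Leaving out mice 10 and 13 made it 1.86 ± 0.28 for Selp, which was called (adjusted p = 0.0412), against 0.375% of all genes. In that fit it was 1.42 ± 0.28 for Vcam1 (adjusted p = 0.0789), 1.25 ± 0.34 for Sele (adjusted p = 0.176) and 0.72 ± 0.21 for Icam1 (adjusted p = 0.201).

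Between 5 h and 2 h, no gene of the 6 was called in livers without stem cells, where 15.7% of all genes were. The log2 changes, 5 h minus 2 h, were 0.89 ± 1.37 for Icam1, 0.69 ± 0.98 for Vcam1, 1.70 ± 1.72 for Sele and 1.29 ± 0.94 for Selp. All 4 signs turned when mice 10 and 13 were left out. Icam1 fell by 0.81 ± 0.15 (adjusted p = 0.0117) and was the one gene of the 6 called, against 13.2% of all genes. Vcam1 then had a log2 change of -0.53 ± 0.20 (adjusted p = 0.108), Sele of -0.36 ± 0.24 (adjusted p = 0.355) and Selp of -0.01 ± 0.20 (adjusted p = 0.982). Pecam1 was higher at 5 h by 0.49 ± 0.24 in the fit of all livers (adjusted p = 0.183). Its groups did not overlap, as was so for 35.9% of all genes. Madcam1 had a log2 change of -0.13 ± 0.14.

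In livers with stem cells none of the 6 genes was called between 5 h and 2 h either, against 18.6% of all genes. The log2 changes were 1.27 ± 1.37 for Icam1, 1.84 ± 0.98 for Vcam1, 2.69 ± 1.72 for Sele and 2.54 ± 0.94 for Selp (adjusted p = 0.0859). For Vcam1, Sele and Selp the 3 livers at 5 h were all above the 3 livers at 2 h. In this comparison 42.8% of all genes had groups that did not overlap. When mice 10 and 13 were left out, 3 of the 6 were called, each higher at 5 h, against 19.7% of all genes called and 10.3% called higher. Selp rose by 1.85 ± 0.20 (3.59-fold, adjusted p = 0.000548), Sele by 0.88 ± 0.24 (adjusted p = 0.035) and Vcam1 by 0.88 ± 0.20 (adjusted p = 0.0147). Icam1 had a log2 change of -0.09 ± 0.15 (adjusted p = 0.703), the opposite sign to the fit of all livers.

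Between 5 h and 2 h without stem cells, 6.47% of all genes were called higher and 9.21% lower. Of the 32 measured inducers and regulators, 6 rose and none fell. Il1r1, the interleukin 1 receptor, rose by 3.16 ± 0.48 (adjusted p = 0.00425). Tnfrsf1a, the main receptor of tumour necrosis factor, rose by 1.14 ± 0.13 (adjusted p = 0.00194), and Gata6 by 0.94 ± 0.23 (adjusted p = 0.022). With stem cells 6 rose and none fell, led by Il1r1 with 3.61 ± 0.48 (adjusted p = 0.00153), Gata6 with 2.07 ± 0.23 (adjusted p = 0.000679) and Nfkb1 with 1.94 ± 0.53 (adjusted p = 0.0293). Over all genes with stem cells, 8.79% were called higher and 9.78% lower. These shares, and those without stem cells, stand beside the lists of the next 2 paragraphs too. The median change of the inducers and regulators was 0.58 without and 0.47 with stem cells, against -0.07 and -0.08 over all genes. In the fit lacking mice 10 and 13 the calls were 4 higher and 3 lower without stem cells, the lower ones being Il1b, Il4 and Tnfaip3. With stem cells they were 12 higher and 4 lower. Across all genes 13.2% were called in that fit without stem cells and 19.7% with them.

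Of the 18 measured counter-receptors, which are the leukocyte ligands of these molecules and the enzymes that build their sugars, 4 rose and 2 fell without stem cells. Cd177, a neutrophil protein that binds PECAM-1, rose by 1.90 ± 0.54 (adjusted p = 0.0419), and Itgam, a subunit of an ICAM-1 binding integrin, by 1.12 ± 0.33 (adjusted p = 0.0434). Itgb7, a subunit of the MAdCAM-1 receptor, fell by 0.95 ± 0.20 (adjusted p = 0.013). With stem cells 4 rose and 1 fell, among them Cd177 with 2.33 ± 0.54 (adjusted p = 0.017) and Cd44, a ligand of E-selectin, with 1.51 ± 0.23 (adjusted p = 0.00308). The counts were again 4 and 2, and 4 and 1, with mice 10 and 13 left out. Neutrophil markers moved with these genes: 2 of 10 rose without and 3 of 10 with stem cells, with medians of 1.87 and 1.82 (7 and 9 of 10 with mice 10 and 13 left out), and their part in the change was not tested.

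Of 23 measured other endothelial adhesion and junction genes, 4 fell and none rose between 5 h and 2 h without stem cells, namely Mcam with -0.96 ± 0.28 (adjusted p = 0.0441), Emcn with -0.91 ± 0.27 (adjusted p = 0.0469), Jam3 with -0.62 ± 0.17 (adjusted p = 0.0353) and Cd99l2 with -0.53 ± 0.16 (adjusted p = 0.0461). With stem cells F11r rose by 0.67 ± 0.17 (adjusted p = 0.0248), while Cldn5 fell by 1.77 ± 0.45 (adjusted p = 0.0224) and Jam3 by 0.56 ± 0.17 (adjusted p = 0.045). With those mice left out the first count became 1 lower (Icam4) and the second 3 higher and 2 lower. Endothelial markers fell beside them: 9 of 18 without and 7 of 18 with stem cells, with median log2 changes of -1.08 and -0.69. Kdr fell by 1.82 ± 0.27 (adjusted p = 0.00412) without and by 1.29 ± 0.27 (adjusted p = 0.0108) with stem cells.

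In the inflammatory cells Icam1 was lower in both samples with stem cells than in both without. It was at 3.59 and 4.45 in mice 987 and 989 with stem cells, against 5.36 and 5.94 in mice 983 and 985 without. Its log2 change was -1.63 ± 0.45 (3.10-fold lower, n = 2 each, adjusted p = 0.186 by limma). Its second probe gave -1.56 ± 0.65. Pecam1 was at 0.70 and 0.27 with stem cells, against -0.42 and -0.55 without, a log2 change of 0.97 ± 0.36 (adjusted p = 0.25 by limma). Neither gene was called, though with normexp background correction Icam1 was (-1.90, adjusted p = 0.00252 by limma). The share of all genes called with that correction is not reported here. Icam1 and Pecam1 both had groups that did not overlap, as did 52.5% of all 14251 genes, with 2 samples in each group.

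Selp was at -2.05 and -1.79 with stem cells, against -0.22 and -1.63 without. The samples did not overlap (log2 change -0.996 ± 0.53, adjusted p = 0.37). That was so for 3 of the 5 tested genes, against 52.5% of all genes. Vcam1 was at 2.33 and -0.04, against 2.17 and 1.62. Madcam1 was at -5.14 and -4.38, against -4.67 and -4.02, and was well above background in 1 sample of each group. Both of these had overlapping samples. Without mouse 985 the Selp change was -1.70 and was called (adjusted p = 0.0375), with 2085 of all genes called in that fit. There the 1 sample left without stem cells is assumed to vary like the 2 with them, which alone give the spread.

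None of the 5 tested genes was called in the cells, where 0.014% of 14251 genes were called and 2 of the 5 had a raw p under 0.05, as did 2559 genes in all. Their median log2 change was -0.75 against 0.09 over all genes. None of the listed inducers, counter-receptors or other adhesion genes was called. Neutrophil markers were higher in the 2 samples with stem cells, with median deviations of 0.65 and 0.99 against -0.65 and -1.09 without, and all 10 were above 0 in the comparison with none called. Platelet markers, 12 of 12 above 0 with a median of 0.43, were also above 0 with none called, as were 9 of 9 hepatocyte, 10 of 11 macrophage and 7 of 7 B cell markers. Pecam1 is also made by leukocytes and platelets, and their part in its difference was not tested.

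The stem cell effect in the cells was set against that in the liver at 5 h. None of the 6 genes was called, against 2.25% of all genes. The log2 difference of effects was 1.24 ± 0.38 for Pecam1 (adjusted p = 0.111 by limma) and -1.57 ± 1.97 for Icam1 (adjusted p = 0.728). When mice 10 and 13, which enter this comparison through the shared spread alone, were left out, Icam1 was called at -1.57 ± 0.37 (adjusted p = 0.0408), against 4.29% of all genes. That fit was chosen after the data had been seen.

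The inflammatory cells were also set against whole liver at 5 h. Without stem cells 3 of the 6 genes were called, all lower in the cells, against 61% of all genes called and 31.7% called lower. With stem cells 5 were called, 4 lower and 1 higher, against 63.8% called, 35.4% lower and 28.4% higher. One call in each comparison is Sele, which passed the filter only through the livers. Of the other 5 genes, 2 were called without stem cells, and 4 with them, 3 of these lower. Cells and livers did not overlap for 6 of the 6 genes with stem cells and 5 without, against 77.8% and 73.8% of all genes. No test was made of these shares against those of all genes.

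Vcam1 was at 2.33 and -0.04 in cells with stem cells, against 5.5 to 5.77 in their livers, and the log2 difference was -4.52 ± 1.09 (23.0-fold lower, adjusted p = 0.00271). Without stem cells it was at 2.17 and 1.62 in cells, against 5.25 to 5.63 in livers (-3.61 ± 1.09, 12.2-fold lower, adjusted p = 0.0115). Every cell sample was below every liver at 5 h. Most genes did not overlap between cells and livers, 77.8% with stem cells and 73.8% without. Neither call held when 1 cell sample was left out: without mouse 989 the Vcam1 difference with stem cells was -3.34 (adjusted p = 0.05004), and without mouse 985 that without stem cells was -3.33 (adjusted p = 0.0698).

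Sele was not well above background in any cell sample and was so in all 6 livers at 5 h. It entered the fit through the livers alone, so its lower level in the cells was fixed by that filter and is given as a description. Each cell sample was then set to the lowest signal of any probe well above background on its array. Where its own Sele signal was higher, that signal was kept. The cells were so 23.4-fold lower than livers where stem cells had been given, and 26.7-fold lower where none had. That level is not a detection limit of the Sele probe, so these folds are not lower limits. The measured means, which rest on background signal in the cells, were -6.60 in cells against -0.06 in livers with stem cells (adjusted p = 0.0063 for that difference), and -5.48 against 0.09 without (adjusted p = 0.0162). Selp fell by 2.72 ± 0.99 with stem cells (6.57-fold lower, adjusted p = 0.0282), and without them its log2 difference was -1.70 ± 0.99 (adjusted p = 0.154), with cells below livers in each case. The Selp call with stem cells was lost when any 1 of its 5 samples was left out (differences of -2.85 to -2.58, adjusted p between 0.0507 and 0.113). The Sele call without stem cells was lost without mouse 985 (-4.44, adjusted p = 0.127), and with normexp background correction the Sele difference with stem cells was -1.57 (adjusted p = 0.0872).

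Icam1, at 3.59 to 5.94 in the 4 cell samples, was below all 6 livers at 5 h, which lay at 6.32 to 6.62. Its log2 difference was -2.43 ± 1.39 with stem cells (adjusted p = 0.144) and -0.86 ± 1.39 without (adjusted p = 0.62), with an error that draws on the spread of the 2 h livers too. Both were called without mice 10 and 13 (-2.43 ± 0.26, adjusted p = 9.4e-06, and -0.86 ± 0.26, adjusted p = 0.0137). In that fit 6 of the 6 genes were called with stem cells against 66.2% of all genes, and 5 without against 63.6%.

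Madcam1 was lower in cells by 1.57 ± 0.25 with stem cells (adjusted p = 0.0001) and by 0.96 ± 0.25 without (adjusted p = 0.0044). Its probe was well above background in 2 of the 4 cell samples, and without mouse 983 the difference without stem cells was -0.63 (adjusted p = 0.0684). With another background correction the difference with stem cells was 0.20 (adjusted p = 0.687), the opposite sign, and that without stem cells was -0.37 (adjusted p = 0.478).

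Pecam1 was the one gene of the 6 that was higher in the cells. With stem cells it was at 0.70 and 0.27 in cells, against -1.21, -0.56 and -0.78 in livers, and rose by 1.33 ± 0.27 (2.52-fold, adjusted p = 0.000762). Without stem cells it was at -0.42 and -0.55 in cells, against -0.53, -0.69 and -0.53 in livers, with overlap (0.10 ± 0.27, adjusted p = 0.775). The 12 measured platelet markers were all called higher in cells in both comparisons, with medians of 3.06 with and 2.87 without stem cells, and their part in the Pecam1 level was not tested.

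**Figure D4:**
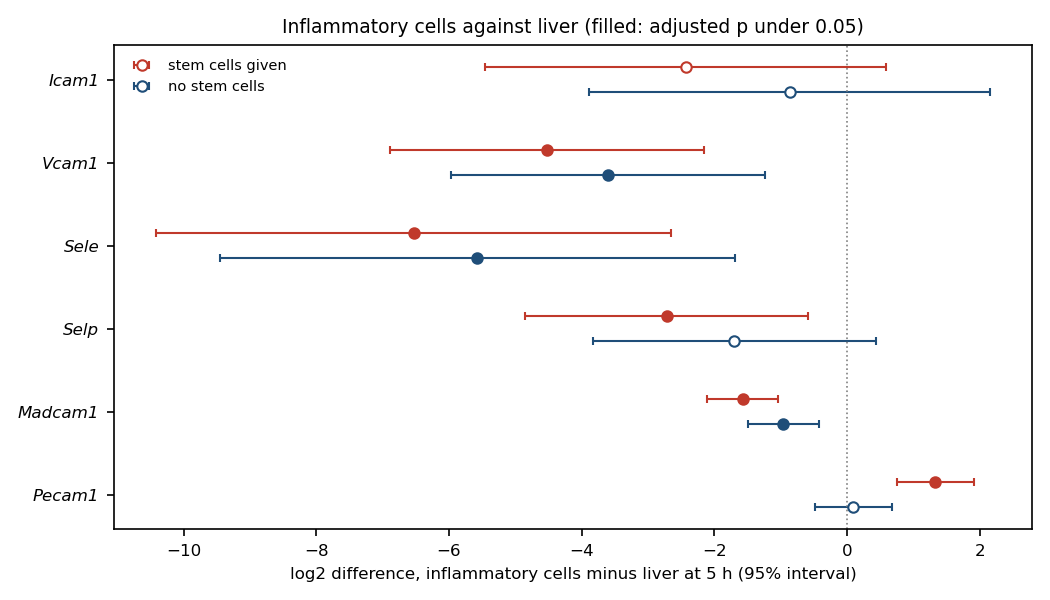
Log2 difference, inflammatory cells minus liver at 5 h, with its 95% interval (x axis) for each gene (y axis), with stem cells and without. Filled points had an adjusted p under 0.05. Vcam1 and Sele lay furthest below 0, Pecam1 with stem cells lay above 0, and the Sele points rest on cell signals that were not well above background.

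The ligands of these molecules ran the other way. Of 19 counter-receptors, 12 rose and 3 fell in cells against liver both with and without stem cells. Their medians were 3.72 and 3.49, against -0.23 and -0.04 over all genes. Among all genes 28.4% rose and 35.4% fell with stem cells, and 29.3% rose and 31.7% fell without. These shares stand beside the lists of the next 3 paragraphs too. Itgb7, which pairs with Itga4 to bind MAdCAM-1, rose by 7.0 ± 0.34 with stem cells (adjusted p = 2.49e-09) and by 5.16 ± 0.34 without (adjusted p = 3.28e-08). Spn, a sialomucin that E-selectin binds, rose by 6.28 ± 0.31 and 5.67 ± 0.31, and Itgax, an integrin subunit of myeloid cells, by 5.55 ± 0.26 with stem cells. Itga4, a subunit of the VCAM-1 receptor, rose by 4.88 ± 0.27 without stem cells. St3gal4, a sialyltransferase for selectin ligands, fell by 2.16 ± 0.29 and 2.49 ± 0.29, and Itga9 fell by 0.96 ± 0.30 and 1.53 ± 0.30.

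Other endothelial adhesion and junction genes fell in 15 of 23 cases with stem cells and 13 of 23 without, and 3 rose in each. F11r, a junctional adhesion molecule, fell by 5.05 ± 0.20 with and 5.65 ± 0.20 without stem cells, and Tjp1, a tight junction scaffold, had differences of -4.69 ± 0.25 and -5.09 ± 0.25. Nectin2 fell by 4.54 ± 0.33 and 4.02 ± 0.33, and Ocln, the tight junction protein occludin, had differences of -3.80 ± 0.55 and -4.35 ± 0.55. Cd34, Icam2 and Vwf rose, with log2 differences of 2.23 ± 0.31, 1.45 ± 0.20 and 1.97 ± 0.40 with stem cells and 1.15 ± 0.31, 1.72 ± 0.20 and 1.40 ± 0.40 without. Vwf, the von Willebrand factor gene, is also expressed by megakaryocytes, and Icam2 by leukocytes. Hepatocyte markers fell in both comparisons too, and the part of each cell type in the falls and rises of this list was not tested.

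Inducers and regulators, 35 in this fit, split, with 11 higher and 10 lower with stem cells and 14 higher and 7 lower without. Called in either direction were 63.8% of all genes with stem cells and 61% without. Ltb, the lymphotoxin beta gene, rose by 5.78 ± 0.39 with stem cells, and Il4 and Ifng rose by 5.54 ± 1.15 and 5.17 ± 0.83 without. Il1r1 had differences of -8.88 ± 0.51 with and -6.43 ± 0.51 without stem cells, and Gata6 of -6.86 ± 0.26 and -6.99 ± 0.26. The counts were 17 higher and 11 lower with stem cells and 20 and 9 without once mice 10 and 13 were left out. In that fit 66.2% of all genes were called with stem cells and 63.6% without.

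Markers of the tissue matched the labels of both sample types. All 9 measured hepatocyte markers were called lower in cells both with and without stem cells, with medians of -6.38 and -7.18, though 7 of the 9 were well above background in all 4 cell samples. Of 18 endothelial markers 13 fell with and 11 without stem cells, and of 12 sinusoidal endothelial markers 9 and 10 fell and 1 rose in each. None of the 18 was below background in all 4 cell samples. All 7 B cell markers and 6 of 8 T cell markers rose in both comparisons. Among neutrophil markers 6 of 10 rose with and 3 without stem cells, among macrophage markers 4 rose and 1 fell with and 2 rose and 3 fell without, and of 13 stellate and stromal markers 11 fell in each. Within a tissue no marker of the 9 lists was called for stem cells over all samples. With mice 10 and 13 left out, the endothelial markers Cldn5 and Sox18 were called higher, and Cd14 and Postn lower, in 2 h livers given stem cells.

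By group mean, Icam1 was highest in livers at 5 h without stem cells (6.51) and with them (6.45), 2 groups that did not differ beyond their SDs. Below these by more than either SD came cells without stem cells (5.65), then livers at 2 h without (5.63) and with stem cells (5.18), and cells with stem cells (4.02), where neighbours did not differ beyond their SDs. For Vcam1, Sele and Selp the 2 groups of 5 h livers were again highest and within an SD of each other. That order rests on mouse 13, and for Icam1 on mouse 10 too. Without mouse 13 the 2 h livers without stem cells averaged 7.32 for Icam1, 6.03 for Vcam1 and 0.45 for Sele, above both groups of 5 h livers. For Selp they averaged 0.79, between them. Without mouse 10 the 2 h livers with stem cells averaged 6.54 for Icam1, also above both groups of 5 h livers. For Vcam1 (4.785), Sele (-0.95) and Selp (-1.05) they stayed below both. Cells with stem cells were lowest for Vcam1 (1.14) and Selp (-1.92), by less than the larger SD below the next group. Sele was not well above background in either group of cells, and Madcam1 in only 1 sample of each, so these groups have no order for those genes. For Pecam1 cells with stem cells were highest (0.49), above cells without stem cells (-0.48) by more than either SD, and livers at 2 h with stem cells were lowest (-1.28).

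Across the 12 livers Icam1, Vcam1, Sele and Selp varied together, a description that rests partly on mice 10 and 13. Pearson's r between Vcam1 and Sele was 0.99 over 12 livers and 0.85 over the 10 without mice 10 and 13. For Sele and Selp it was 0.95 and 0.89, and for Vcam1 and Selp 0.96 and 0.82. For Icam1 and Vcam1 it was 0.96 and 0.53, and for Icam1 and Selp 0.89 and 0.17. Madcam1 had r = -0.26 with Selp over 12 livers and -0.66 over 10, -0.11 and -0.59 with Sele, -0.13 and -0.42 with Vcam1, and 0.06 and 0.15 with Icam1. Pecam1 and Madcam1 had r = -0.49 and -0.53. All livers share the 4 groups and the slides.

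The genes most like each of the 6 over the 12 livers were named by Pearson's r alone, the 3 highest for each. They were Hcar2, Cish and Phlda1 for Icam1 (r = 0.99 each over 12 livers, 0.77 to 0.83 over 10 livers). For Vcam1 they were Relb, Sele and Gpr84, of which Gpr84 kept r = 0.96 over 10 livers. Batf, Batf2 and Gpr84 were nearest to Sele, with r of 0.84 to 0.86 over 10 livers. Cd40, Stx11 and Tifa were nearest to Selp and each kept r = 0.97 over 10 livers. Cfd, Tpm2 and 2900009J20Rik were nearest to Madcam1, at 0.86 to 0.88, and Ptpn23, LOC546077 and Tmem47 to Pecam1, at 0.93.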

How the data were processed

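Agilent 1-colour arrays of 12 livers and 4 inflammatory cell samples were analysed. Per the file headers, the authors extracted them with Agilent Feature Extraction 10.5.1.1, whose processed signal is the deposited intensity after background correction on a linear scale, with probe positions in mm8. The authors' deposited series value table held the same values (largest difference 0). Control spots and spots with an outlier flag were left out, spots of a probe were averaged, and log2 intensity minus the array's 75th percentile was used. A probe was kept if well above background on at least 3 of 12 livers, 2 of 4 cell samples or 2 of all 16. A probe missing on any array of a fit was left out, and the brightest kept probe stood for a gene. limma 3.58.1 in R 4.3.3 (lmFit and eBayes, 2-sided, Benjamini-Hochberg over all genes, threshold 0.05) fitted the group means of livers, cells or both. The fits were tested on simulated data.

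Symbols were matched through RefSeq by accession for 23358 probes and by current or older symbol for 6738 and 2906. No array was saturated on any spot, and the highest correlation of 2 arrays was 0.983, and no pair held the same values. The labels number the mice but say nothing more on how samples were kept apart, so a p-value covers only the variation among the samples used. The genes, the 3 pathway lists and 9 marker lists, and the leaving out of mice 10 and 13 were chosen with earlier results of these data known. List genes are named where called, up to 4 in each direction for each list and comparison, with exceptions stated; some such genes are not reported here. Alternatives were normexp background correction (offset 50), quantile normalization, no filter, mean of probes, the compared arrays alone, each replicate left out, slide as a block, no mice 10 and 13, and the value table.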

Additional observations from a re-analysis of the deposited data

How the results depend on the processing

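Signs and calls of single genes held in 671 of 741 repeats. These include the repeats with the value table, which holds the same values as the main fit and could only give the same result. The labels give the groups no shared replicate numbers, but livers can be paired by slide, and with slide as a block no call of the 6 genes changed. The number of the 6 genes called without mice 10 and 13 became 4 for stem cells at 2 h, 1 between 5 h and 2 h without stem cells and 3 with them, 1 for the difference of stem cell effects in liver, 5 for cells against liver without stem cells, and 1 for the difference of effects between cells and liver (for the last 2, leaving them out was chosen after seeing the data). With the compared arrays alone it became 1 between 5 h and 2 h with stem cells (Selp), where 3073 of 14648 genes were called. In such a fit it became 5 for cells against liver without stem cells, where 9087 of 16303 genes were called. With normexp the number became 1 in the cells (Icam1, log2 change -1.90, adjusted p = 0.00252 by limma). The share of all genes called in that fit is not reported here. With normexp it became 3 for cells against liver with stem cells, where 6723 genes were called in all. Leaving out 1 replicate at a time gave 0 to 1 for stem cells at 2 h (1 without mouse 13), 0 to 1 in the cells (1, Selp, without the sample numbered 985), 1 to 3 for cells against liver without stem cells (1 without 985) and 3 to 4 with stem cells (3 without 989).

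Signs that turned with normexp were those of Pecam1 for stem cells at 2 h (0.19), Selp for stem cells at 5 h (-0.013; -0.00069 with quantile normalization), Madcam1 between the times without stem cells (0.0090; 0.025 with quantile normalization), Madcam1 in the cells (0.81) and in cells against liver with stem cells (0.20), and Sele (1.01) and Madcam1 (0.58) in the difference of effects between cells and liver. Leaving out both mice, the signs between 5 h and 2 h turned for Icam1 (-0.81), Vcam1 (-0.53), Sele (-0.36) and Selp (-0.0097) without stem cells and for Icam1 (-0.095) with them. Leaving out 1 replicate, values spanned 0 for stem cells at 2 h for Icam1 (-2.14 to 0.92) and Sele (-3.21 to 0.66), and at 5 h for Sele (-0.32 to 0.10) and Selp (-0.11 to 0.18). Between the times they spanned 0 without stem cells for Icam1 (-0.81 to 1.77), Vcam1 (-0.53 to 1.41), Sele (-0.36 to 2.82) and Selp (-0.0097 to 2.02), and with them for Icam1 (-0.095 to 2.02). For the difference of effects in liver they spanned 0 for Icam1 (-0.98 to 2.08), Sele (-0.82 to 3.05), Madcam1 (-0.14 to 0.010) and Pecam1 (-0.25 to 0.15), and in the cells for Vcam1 (-1.93 to 0.43). Between cells and liver the difference of effects spanned 0 for Vcam1 (-2.10 to 0.26) and Sele (-2.09 to 0.16). The number of all genes called ranged from 0 to 485 for stem cells at 2 h, 0 to 48 at 5 h and 0 to 2085 in the cells, against 4, 5 and 2. Between 5 h and 2 h it ranged from 285 to 2385 without stem cells and from 823 to 3073 with them, and for the 2 differences of effects from 0 to 55 and from 3 to 2381. For cells against liver the number of all genes called ranged from 7152 to 10367 without stem cells and from 6723 to 10796 with them. The cause of these moves was not tested. Signal over background limits Sele and Madcam1 in the cells.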
